A study of Mus musculus with 8 samples.

Results

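In mouse testes, 9 genes were followed that encode the proteins which replace ordinary histones in the maturing male germ cell, together with testis histones that precede them. They are the transition proteins Tnp1 and Tnp2, the protamines Prm1 and Prm2, the protamine-like gene Prm3, the spermatid linker histones Hils1 and H1fnt (now H1f7), the testis linker histone Hist1h1t (now H1f6) and the testis histone Hist1h2ba (now H2bc1). They were found by gene name among the probes that are not array controls: 10 of 55681 probes carried these 9 names, with 2 probes for Prm3 and 1 for each other gene. All 9 genes met the filter on dim probes, among 26586 genes tested. C57BL/6 testes of 4 groups were compared, each group with 2 one-colour arrays that the labels call biological replicates (n = 2). The groups were Ip6k1-/- (KO) at 26 days postpartum (dpp), Ip6k1+/+ (WT) at 26 dpp, Ip6k1-/- at 17 dpp and Ip6k1+/+ at 17 dpp. All pups were littermates from matings of heterozygotes, those of 17 dpp not yet weaned and those of 26 dpp weaned, and none was treated. The labels name no tissue-specific driver of the deletion, and the deleted stretch of Ip6k1 is not given in the sources used here.

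After meiosis, round spermatids transcribe the genes for transition proteins and protamines and hold the messenger RNAs in storage. In elongating spermatids the stored messages are translated, transition proteins take the place of histones, and protamines then pack the DNA into the sperm head. Hist1h1t and Hist1h2ba belong to an earlier step: they are made in meiotic spermatocytes and enter chromatin before the exchange. Between the ages sampled, the germ cells of the young testis complete meiosis for the first time and spermatids accumulate. Ip6k1 encodes an inositol hexakisphosphate kinase, and mice without it are known for male infertility and for a changed timing of the TNP2 and PRM2 proteins in spermatids. The arrays measured messenger RNA, so they say nothing of the timing of the proteins.

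A level below is the log2 processed signal minus the log2 of that array's 75th percentile of signal, so a level of one probe may be compared between arrays but not with another probe. Between 58.8% and 64.7% of probes were well above background on an array. Ip6k1 itself had levels of 1.41 and 1.30 in KO and 2.79 and 2.77 in WT testes at 26 dpp, and of 1.36 and 1.49 in KO and 2.19 and 2.30 in WT testes at 17 dpp. The KO arrays were lower at both ages without overlap, with limma adjusted p = 0.519 at 26 dpp and 1 at 17 dpp, though a probe outside the deleted stretch would check nothing. One array stood apart: over all genes, KO replicate 2 at 26 dpp had correlations of 0.92 to 0.95 to each 17 dpp array, and of 0.84 to 0.87 to each other array of its own age. Those other 3 had 0.99 among themselves. The defining Sertoli cell markers of the testis were present on every array, with at least 7 of 8 well above background. Counts of calls for the 9 genes and for the gene lists beside them are given with and without this array, and n is then 1 for KO at 26 dpp, which is assumed to vary like the other groups.

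The protamine genes and Tnp2 lie side by side on chromosome 16, all on the minus strand, in the order Tnp2, Prm3, Prm2, Prm1 of rising position. On mm9, the build of the files, the probe of Tnp2 lies at chr16:10788029-10788088, that of Prm3 at chr16:10790601-10790660, that of Prm2 at chr16:10791549-10791608 and that of Prm1 at chr16:10796450-10796509. The other genes lie elsewhere, with the probe of Tnp1 at chr1:73061834-73061893, that of Hils1 at chr11:94829603-94829662 and that of H1fnt at chr15:98086469-98086528. Hist1h1t (probe at chr13:23788343-23788402) and Hist1h2ba (probe at chr13:24025811-24025870) lie in the histone cluster of chromosome 13. No exon or UTR was assigned to the probes here. The probes of Tnp2 and Prm3 each hold a polyadenylation hexamer, the signal that ends a messenger RNA, as do 13.7% of all probes on the array. The stretches of 30 bases around it are shown because they place these probes, with the hexamer in capitals:
Tnp2 probe: tatgcaacatggATTAAAgcttgtaccctg
Prm3 probe: acattcagaaaagAATAAAgagtctccatg

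Promoter windows of 300 bases, from 250 before to 50 after the RefSeq start on GRCm38.p6, were available for all 9 genes. Shown are 4 of them: Tnp1, Prm1 and Tnp2, which were among the genes that changed by 705-fold or more with age in WT testes, and Hist1h2ba, which changed least. Hils1 and H1fnt, not shown, changed more than these. Capitals mark the motifs searched on both strands, and these coordinates are on another build than those of the probes:
Tnp1 promoter, chr1:73015850-73016149, minus strand: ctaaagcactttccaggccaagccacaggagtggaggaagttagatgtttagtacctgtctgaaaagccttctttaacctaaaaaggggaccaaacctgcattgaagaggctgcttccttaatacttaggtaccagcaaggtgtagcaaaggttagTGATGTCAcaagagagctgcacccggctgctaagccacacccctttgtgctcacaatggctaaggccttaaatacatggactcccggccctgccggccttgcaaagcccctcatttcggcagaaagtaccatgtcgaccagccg
Prm1 promoter, chr16:10796774-10797073, minus strand: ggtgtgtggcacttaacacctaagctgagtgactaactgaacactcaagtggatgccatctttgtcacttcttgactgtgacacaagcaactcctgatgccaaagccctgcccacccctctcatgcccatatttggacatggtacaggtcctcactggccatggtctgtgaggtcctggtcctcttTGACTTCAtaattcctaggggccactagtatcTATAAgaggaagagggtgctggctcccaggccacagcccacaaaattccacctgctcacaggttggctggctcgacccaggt
Tnp2 promoter, chr16:10788606-10788905, minus strand: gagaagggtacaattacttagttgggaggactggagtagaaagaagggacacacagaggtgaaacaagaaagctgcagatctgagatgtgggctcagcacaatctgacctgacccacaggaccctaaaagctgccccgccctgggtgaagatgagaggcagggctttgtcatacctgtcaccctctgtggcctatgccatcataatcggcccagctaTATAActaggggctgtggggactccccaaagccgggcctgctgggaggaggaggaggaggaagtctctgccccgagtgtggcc
Hist1h2ba promoter, chr13:23934107-23934406, minus strand: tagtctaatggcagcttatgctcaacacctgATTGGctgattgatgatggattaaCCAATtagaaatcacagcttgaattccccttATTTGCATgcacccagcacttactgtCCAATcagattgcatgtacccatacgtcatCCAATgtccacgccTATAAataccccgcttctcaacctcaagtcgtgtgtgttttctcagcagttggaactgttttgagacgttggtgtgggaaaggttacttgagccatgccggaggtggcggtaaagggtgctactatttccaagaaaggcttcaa

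The cyclic AMP response element (CRE), the site of the spermatid activator CREM, is TGACGTCA in its full form, which was in 0 of the 9 windows and in 1.79% of all 32851 windows. With its centre left free, TGANNTCA was in 4 of 9 (Tnp1, Prm1, Prm3 and Hils1) and in 14.1% of all windows, and the full form is one case of it. In Tnp1 it ran from base −94 to −87 before the start, and in Prm1 from −64 to −57. The TATA core TATAA was in 5 of 9 windows (Tnp2, Prm1, Prm2, Hist1h1t and Hist1h2ba) and in 24.9% of all. It lay at −33 to −29 in Tnp2 and at −32 to −28 in Prm1. In Prm2 the match to TATAA was on the opposite strand, at −30 to −26, where the gene's own strand reads TTATATAT. CCAAT was in 4 of 9 windows (Prm3, Hils1, Hist1h1t and Hist1h2ba) and in 37.4% of all. The Hist1h2ba window held CCAAT 4 times and was the one window of the 9 with the octamer ATTTGCAT, known from H2B genes, which was in 1.74% of all windows. The H1fnt window held none of these motifs. No motif found in these 9 windows overlapped another, and the matches describe letters, not bound sites.

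The first comparison asked how far these genes change as spermatids appear. In KO testes Hist1h1t alone of the 9 genes rose between the ages (limma, adjusted p under 0.05) with all arrays used, where 7.61% of all 26586 genes did, and all 9 rose without KO replicate 2, where 21.7% did. In WT testes 8 of the 9 genes rose between the ages, where 19.1% of all genes did. Hist1h1t rose by 4.71-fold and the other 7 by 705-fold or more, on the probes and the processed signal used in the fit. The ages did not overlap for 4 of 9 genes in KO testes, where 22.5% of all genes were higher at 26 dpp without overlap, and for 9 of 9 in WT testes, where 32.3% were. Fewer spermatids and less RNA per spermatid cannot be told apart in whole testis. The median of all genes for 26 against 17 dpp, with all arrays, was −0.31 (log2) in KO and −0.45 in WT testes. Relative to the other genes, a rise with age below is therefore larger by that much and a fall smaller.

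Tnp1, whose protein is the main transition protein of rodents, had levels of 6.78 and −2.35 in KO and 6.34 and 8.17 in WT testes at 26 dpp, against −1.41 and −1.86 in KO and −2.19 and −2.22 in WT testes at 17 dpp. Both WT arrays of 26 dpp and KO replicate 1 were high, and KO replicate 2 lay below all 4 arrays of 17 dpp. In KO testes the difference between the ages was 3.85 ± 2.69 (log2, SE), with limma adjusted p = 0.329, and in WT testes it was 9.46 ± 2.69 or 705-fold, with adjusted p = 0.0352. Tnp2, which acts with Tnp1, had levels of 6.56 and −5.00 in KO and 5.87 and 7.75 in WT testes at 26 dpp, against −5.28 and −4.63 in KO and −6.54 and −5.62 in WT testes at 17 dpp. Its spot was not well above background on WT replicate 1 of 17 dpp, and KO replicate 2 of 26 dpp lay within the range of the 17 dpp arrays. The difference was 5.74 ± 3.39 in KO testes (adjusted p = 0.262) and 12.89 ± 3.39 in WT testes (adjusted p = 0.03).

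Prm1, one of the main packing proteins of the sperm head, had levels of 7.81 and −5.31 in KO and 7.28 and 8.39 in WT testes at 26 dpp, against −3.90 and −3.40 in KO and −4.72 and −4.44 in WT testes at 17 dpp. Prm2, made as a precursor that is cut in the spermatid, had 6.95 and −3.86 in KO and 6.05 and 8.12 in WT testes at 26 dpp, against −4.42 and −3.66 in KO and −4.74 and −4.09 in WT testes at 17 dpp. For both protamines KO replicate 1 lay between the WT arrays of 26 dpp; KO replicate 2 lay below every 17 dpp array for Prm1, where its spot was not well above background, and within their range for Prm2. In KO testes the differences were 4.90 ± 3.80 (adjusted p = 0.374) for Prm1 and 5.59 ± 3.19 (adjusted p = 0.25) for Prm2. In WT testes Prm1 rose by 12.42 ± 3.80 (adjusted p = 0.0417) and Prm2 by 11.50 ± 3.19 (adjusted p = 0.0334).

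Prm3 lies in the cluster, but its protein is acidic, unlike the basic protamines. Its brighter probe had levels of 5.24 and −3.96 in KO and 5.11 and 5.98 in WT testes at 26 dpp, against −6.68 and −6.67 in KO and −6.81 and −6.60 in WT testes at 17 dpp. At 17 dpp none of its 4 spots was well above background, and KO replicate 2 of 26 dpp was above all 4 of them. For such spots a fold is a lower bound for the processed signal, taken against the lowest signal well above background. Prm3 was at least 71.9-fold higher at 26 dpp in KO testes (limma, adjusted p = 0.114) and at least 2430-fold higher in WT testes (adjusted p = 0.0195). The other Prm3 probe, at chr16:10790822-10790881 and not used in the fit, had 4.41 and −3.58 in KO and 4.12 and 5.16 in WT testes at 26 dpp, against −3.81 and −3.37 in KO and −3.92 and −3.66 in WT testes at 17 dpp. That probe was well above background on all 8 arrays, and on it KO replicate 2 of 26 dpp lay within the 17 dpp range, so the probes disagree on the place of that array. In a fit of probes well above background everywhere it stood for Prm3, with a difference between the ages that did not pass in KO testes (adjusted p = 0.228) and one of 8.43 in WT testes (adjusted p = 0.0227), both smaller than the bounds of the brighter probe, so those bounds hold for that probe and not for the gene.

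Hils1, a linker histone found in elongating spermatids, had levels of 6.30 and −3.57 in KO and 5.84 and 6.88 in WT testes at 26 dpp, against −5.42 and −5.44 in KO and −7.90 and −6.88 in WT testes at 17 dpp. H1fnt, a linker histone needed for the shaping of the spermatid nucleus, had 6.03 and −5.14 in KO and 5.48 and 6.84 in WT testes at 26 dpp, against −7.28 and −6.88 in KO and −7.86 and −6.69 in WT testes at 17 dpp. For both, KO replicate 2 of 26 dpp was above every 17 dpp array and far below the other 3 arrays of its age. At 17 dpp the Hils1 spot was not well above background in WT testes and the H1fnt spot in either genotype. In KO testes the Hils1 difference between the ages was 6.80 ± 2.88 (adjusted p = 0.154), and H1fnt was at least 62.7-fold higher at 26 dpp (adjusted p = 0.161). In WT testes Hils1 was at least 4280-fold higher at 26 dpp (limma, adjusted p = 0.0179) and H1fnt at least 3720-fold higher (adjusted p = 0.0252). These folds and bounds hold for the processed signal only. With a normexp background and 75th percentile scaling the WT rises (log2) were 9.49 for Hils1, 9.32 for H1fnt and 8.74 for Prm3. Tnp1 then rose by 8.85 and Tnp2 by 9.89.

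The spermatocyte histones had the smallest differences between the ages among the 9 genes. Hist1h1t had levels of −0.54 and −1.39 in KO and −0.53 and −0.61 in WT testes at 26 dpp, against −2.93 and −2.19 in KO and −2.89 and −2.72 in WT testes at 17 dpp. Its age groups did not overlap in either genotype, and it rose by 1.60 ± 0.39 in KO testes (adjusted p = 0.0446) and by 2.24 ± 0.39 in WT testes (adjusted p = 0.012). Hist1h2ba had 2.40 and 0.14 in KO and 2.28 and 2.71 in WT testes at 26 dpp, against 0.21 and 0.78 in KO and 0.70 and 0.29 in WT testes at 17 dpp. The ages overlapped in KO testes through replicate 2, with a difference of 0.78 ± 0.72 (adjusted p = 0.448), and did not overlap in WT testes, where it was 2.00 ± 0.72 (adjusted p = 0.0631).

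**Figure D1:**
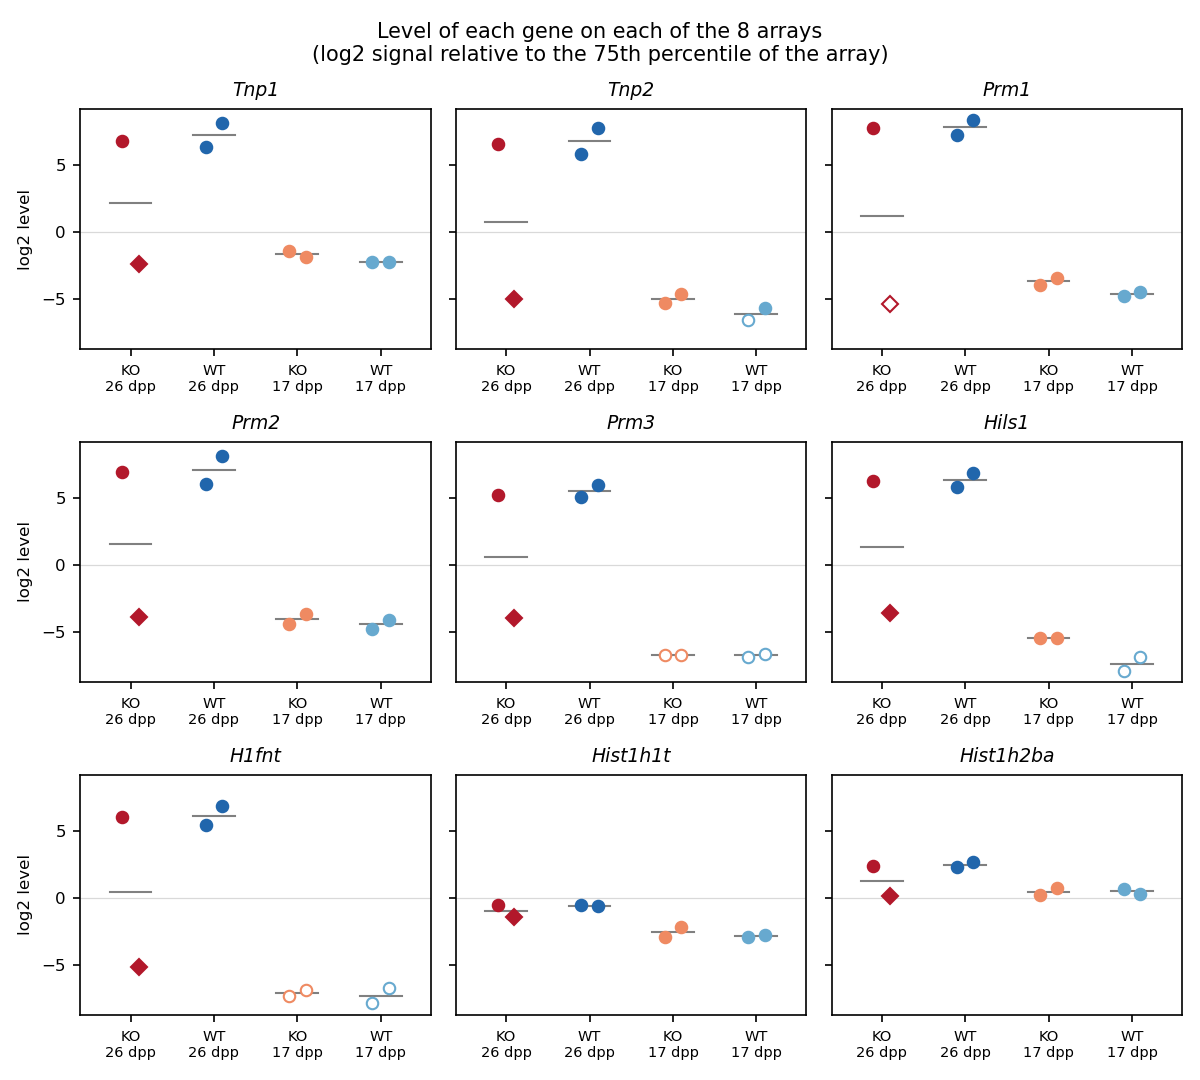
Levels (log2, vertical axis) of each gene on each array, with KO left of WT at each age; points are arrays, lines the group means, the diamond KO replicate 2 of 26 dpp, and open symbols spots not well above background. In 7 panels that diamond sits near the 17 dpp arrays while the other 3 arrays of 26 dpp lie at 5.11 or above; in the Hist1h1t panel all arrays lie between −2.93 and −0.53, and in the Hist1h2ba panel between 0.14 and 2.71.

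The calls in WT testes rest on few arrays. They were all lost with any 1 of the 4 WT arrays left out, and some were lost with either KO array of 17 dpp left out. The share of all genes passing in those fits is not given here, so this loss may not be particular to the 9 genes. Without KO replicate 2 of 26 dpp the same WT differences had adjusted p between 3.02e-05 and 0.00272, and 9 of 9 passed, against 25.6% of all genes. In that smaller set these genes still passed when any other array but KO replicate 1 of 26 dpp was also left out, an alternative chosen after seeing the data. The share of all genes passing there is not given either. The call of Hist1h1t in KO testes was lost with no filter on dim probes, with array weights, in a fit of the 4 KO arrays alone, when replicate numbers were blocked, and without any 1 array other than KO replicate 2 of 26 dpp. Without replicate 2 the KO differences lay between 1.91 (Hist1h2ba) and 11.73 (Hils1) for the 7 genes above background at 17 dpp, and adjusted p of the 9 genes lay between 9.57e-05 and 0.00857.

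The array that stands apart was then described gene by gene. In KO replicate 2 of 26 dpp all 9 genes were below the other 3 arrays of their age, as were 37.7% of all genes tested. On the probes used in the fit, 3 of the 9 were below the range of the 4 arrays of 17 dpp (Tnp1, Prm1 and Hist1h2ba). Another 2 were within it (Tnp2 and Prm2) and 4 above it (Prm3, Hils1, H1fnt and Hist1h1t). Over all genes 41.1% were below and 33.1% above. The other Prm3 probe lay within that range. Prm3 on its brighter probe, Hils1 and H1fnt were well above background on this array. At 17 dpp that Prm3 probe and H1fnt were so on 0 arrays and Hils1 on neither WT array. The other Prm3 probe was so on every array. Against the mean of the 17 dpp arrays, Hist1h1t was higher by 1.30 on this array and by 2.12 on the other 3 arrays of 26 dpp. Tnp1 was −0.43 from the 17 dpp mean here, against 9.02 in the other 3.

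**Figure D2:**
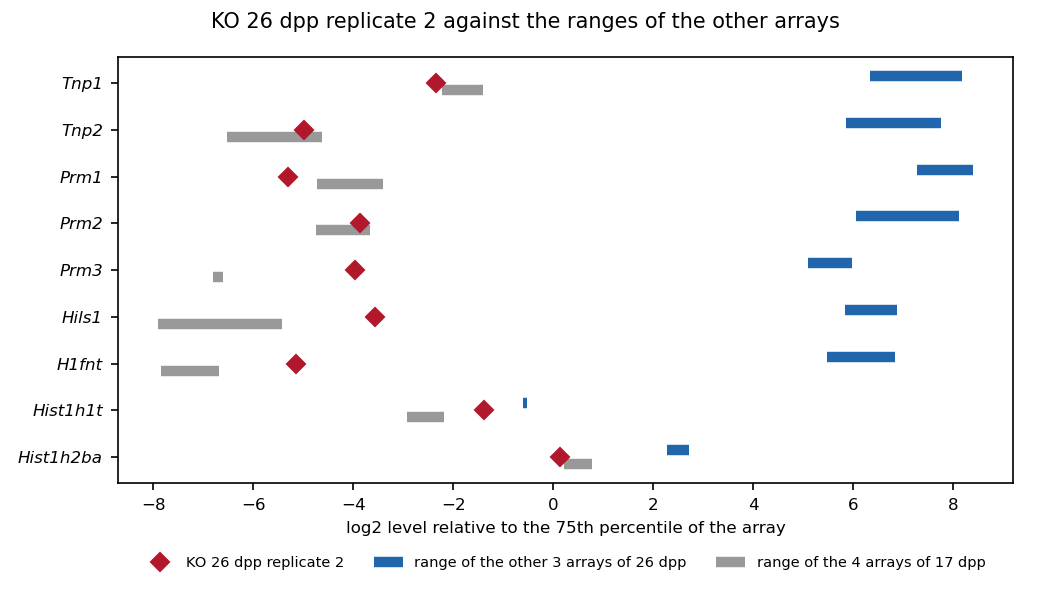
Level (log2, horizontal axis) of each gene in KO replicate 2 of 26 dpp (diamond), with the range of the other 3 arrays of 26 dpp and the range of the 4 arrays of 17 dpp as bars. The diamond lies left of every bar of 26 dpp, and for Prm3 (brighter probe), Hils1, H1fnt and Hist1h1t it lies right of the 17 dpp bar.

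Germ cell marker lists moved with that array, and their part in the result was not tested. The round spermatid list (8 genes, all measured) had a median level of −3.08 in KO replicate 2 against 3.74 in KO replicate 1 and 3.50 and 4.06 in WT testes at 26 dpp, and −3.22 to −3.06 at 17 dpp. Its summed signal, in units of the array's 75th percentile, was 3.25 in KO replicate 2 against 105 in KO replicate 1 and 91.0 and 128 in WT testes of 26 dpp. At 17 dpp that sum was lower than in KO replicate 2, at 1.72 to 1.93. The elongating spermatid list (10 genes) had a median level of −4.43 in that array, against 3.75 to 4.94 in the other 3 and −5.38 to −5.04 at 17 dpp. In that array 3 of the 8 round and 6 of the 10 elongating spermatid markers were above the 17 dpp range, as were 33.1% of all genes. The pachytene and diplotene list (6 genes) stood at 4.20, between the 0.38 to 2.75 of 17 dpp and the 5.71 to 6.01 of the other 3 arrays. The spermatogonia list (8 genes) stood at 2.74, above the −0.03 to 0.39 of the other 3 and near the 2.43 to 2.69 of 17 dpp. Leydig cell markers (6 of 7 measured, Insl3 without a probe by this name) were lowest there, with a summed signal of 0.893 against 10.5 to 21.5 in the other arrays of 26 dpp and 17.5 to 24.0 at 17 dpp, and Cyp11a1, the first enzyme of steroid synthesis, had a level of −7.06. Sertoli cell markers (8 genes) summed to 444 in that array, against 192 to 213 in the other 3 and 421 to 461 at 17 dpp. Their median level was 1.74 in that array, against 1.62 to 1.81 in the other 3 and 3.02 to 3.45 at 17 dpp.

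**Figure D3:**
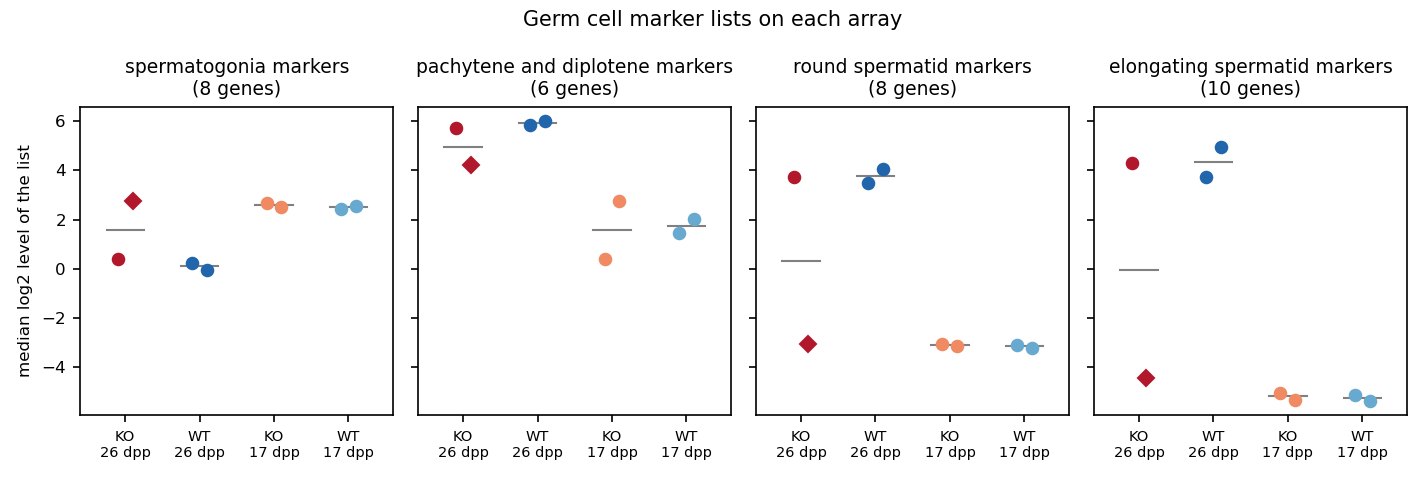
Median log2 level (vertical axis) of 4 germ cell marker lists on each array, with KO left of WT at each age and the diamond for KO replicate 2 of 26 dpp. In the round spermatid panel the diamond sits within the range of the 17 dpp arrays. In the elongating spermatid panel it sits above that range and far below the other arrays of 26 dpp. In the pachytene and diplotene panel it sits between the ages.

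The next comparison asked whether loss of Ip6k1 changes these messages at 26 dpp, when they are abundant. With all arrays 0 of the 9 genes passed the test, where 0.00752% of all genes did (2 of 26586, and 655 at an unadjusted p under 0.05). All 9 KO means were lower, with differences of −0.40 for Hist1h1t, −1.23 for Hist1h2ba and −6.59 to −4.90 for the others, and adjusted p of 0.533 to 0.588. Over all genes 54.7% had a higher KO mean. The groups overlapped for every gene, since KO replicate 1 lay between both WT arrays for 9 of 9 genes, as it did for 44.8% of all genes. Without KO replicate 2 the differences were −0.48 to 0.03, with SE of 0.34 to 0.89, and again 0 of 9 passed, where 0.0376% of all genes did. With KO replicate 1 left out instead, KO at 26 dpp was the array that stands apart alone. That array lay 0.78 (Hist1h1t) to 12.59 (Prm1) below the lowest other array of 26 dpp.

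The WT arrays of 26 dpp also differed between themselves in these genes. Replicate 2 was above replicate 1 for 8 of the 9, as for 40.8% of all genes, by 2.07 for Prm2, 1.89 for Tnp2, 1.83 for Tnp1 and 0.87 for Prm3. Hist1h1t was the exception, at −0.08. KO replicate 1 lay within 0.48 of the WT mean for every one of the 9 genes, with −0.48 for Tnp1, −0.30 for Prm3 and −0.03 for Prm1.

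At 17 dpp, before most spermatids form, the question was whether the messages appear early in KO testes. Of the 9 genes 0 passed the test, where 0.102% of all genes did (27 of 26586, and 385 at an unadjusted p under 0.05), with adjusted p = 1 for each with all arrays. The KO mean was higher for 8 of 9, as for 53.6% of all genes, with a median difference of 0.37 against 0.02 over all genes. The groups did not overlap for 4 of 9 (Tnp1, Tnp2, Prm1 and Hils1), all higher in KO, where 16% of all genes were higher without overlap. The differences were 0.57 ± 2.69 for Tnp1, 1.12 ± 3.39 for Tnp2, whose spot was not well above background on WT replicate 1, and 0.93 ± 3.80 for Prm1. Hils1 was well above background on both KO arrays and on neither WT array, and was at least 1.21-fold higher in KO testes. These errors carry the spread of KO replicate 2 of 26 dpp; without that array they were 0.60 for Tnp1, 0.70 for Tnp2 and 0.41 for Prm1, adjusted p lay between 0.74 and 1, and 0.117% of all genes passed. With a normexp background and 75th percentile scaling the differences at 17 dpp were 0.42 for Tnp1, 0.24 for Tnp2, 0.32 for Prm1 and 0.25 for Hils1. On the processed signal Prm2 (0.37), Hist1h1t (0.24) and Hist1h2ba (−0.01) had overlapping groups. So did Prm3 (brighter probe) and H1fnt, whose spots were not well above background in either genotype. Markers of tissue beside the testis moved with genotype at this age: 3 of 4 measured epididymis markers (6 listed) were lower in KO testes by the test, where 0.0978% of all genes were. The 4 measured had a summed signal of 0.537 and 0.661 in KO and 3.19 and 7.97 in WT testes. Adipocyte markers (5 of 6 measured) summed to 1.39 and 1.04 in KO and 4.02 and 216 in WT testes. Of these 5 markers 0 passed the test, and the sum of 216 came from WT replicate 2 alone. Pachytene and diplotene markers summed to 18.8 and 90.4 in KO and 38.0 and 56.3 in WT testes at this age. The part of these lists in the result was not tested.

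The change of the KO effect between the ages was tested as an interaction. It was negative for all 9 genes, from −0.64 for Hist1h1t to −7.52 for Prm1, and 0 of 9 passed, with limma adjusted p = 0.78 for each. The values of Tnp2, Prm3, Hils1 and H1fnt rest in part on dim spots of 17 dpp. Over all genes 0% passed with limma (508 had an unadjusted p under 0.05). Without KO replicate 2 of 26 dpp the interaction lay between −2.02 (Hils1) and −0.09 (Hist1h2ba) for the 9 genes, with −1.37 for Tnp2. With KO replicate 1 left out instead, KO at 26 dpp was the array that stands apart alone, and the calls of that fit rest on it.

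**Figure D4:**
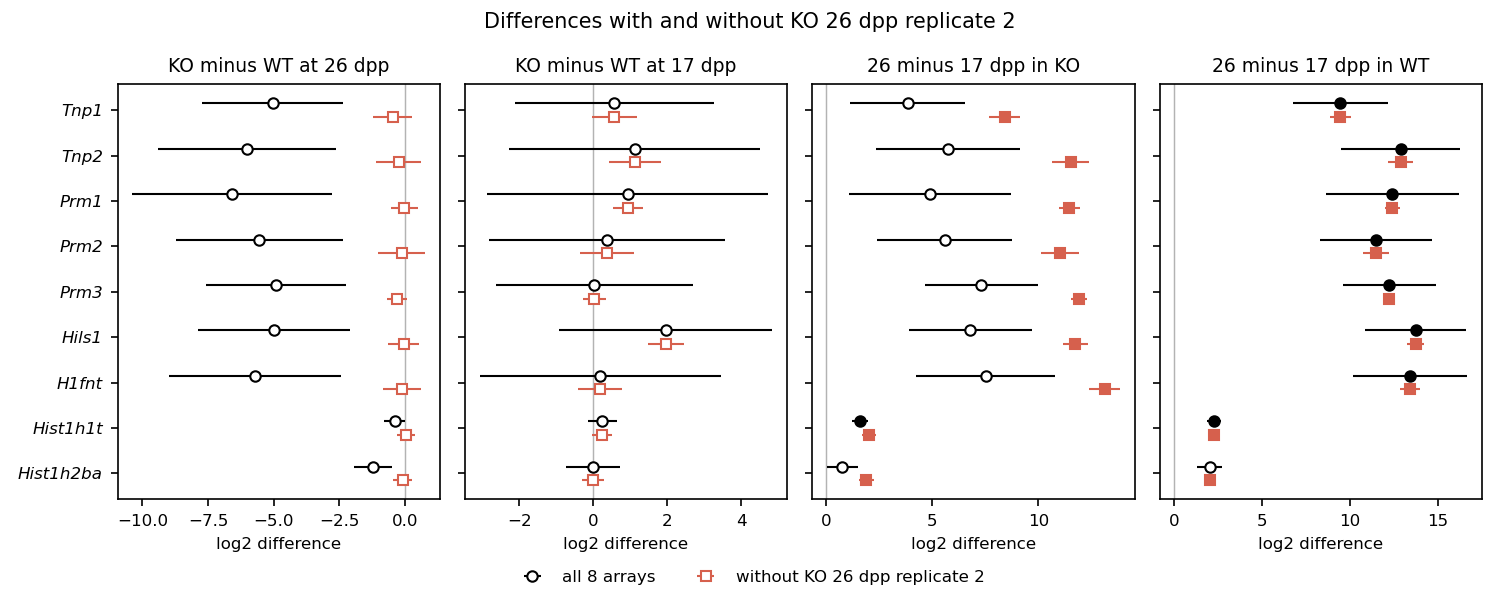
Log2 differences with SE (horizontal axes) for KO against WT at 26 and at 17 dpp and for 26 against 17 dpp in KO and in WT testes; circles use all 8 arrays, squares leave out KO replicate 2 of 26 dpp, and filled symbols passed the test. At 26 dpp the KO differences of 7 genes are −4.90 or lower with all arrays and between −0.48 and −0.03 without that array, and the scale of each panel differs. Values of Tnp2, Prm3, Hils1 and H1fnt that use 17 dpp rest in part on spots not well above background.

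Among themselves, the 7 spermatid genes had much the same profile over the 8 arrays, with Pearson correlations from 0.97 to 1.00 (0.9989 for Tnp2 with Prm2). Hist1h1t was least like the rest, with 0.84 to 0.94. These describe 8 arrays that share 2 ages and 1 array that stands apart. The 5 genes nearest to the mean of the protamines and transition proteins were Fam170b, Irgc1, Erich3, Hmgb4 and Adam34, with r from 0.9993 to 0.9996, and 580 genes exceeded 0.99. Hmgb4, an HMG-box protein gene, had levels of 1.77 and −7.49 in KO and 1.23 and 2.49 in WT testes at 26 dpp, and −7.95 to −7.23 at 17 dpp. Nearest to the mean of Hist1h1t and Hist1h2ba were Stk36, Ttc21a, 3830406C13Rik, 4930505A04Rik and 4933438K21Rik, with r from 0.9974 to 0.9983, and 109 genes exceeded 0.99. Stk36, a kinase gene linked to cilia, had 3.10 and 0.37 in KO and 2.96 and 3.43 in WT testes at 26 dpp, and −0.88 to 0.02 at 17 dpp.

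The genes flanking the protamine cluster were read beside it. In WT testes Socs1, a brake on cytokine signalling beside Tnp2, fell by 1.57 (adjusted p = 0.0168) between the ages. Litaf, on the Prm1 side, fell by 1.87 (adjusted p = 0.0277), and Rmi2 was at least 2.40-fold lower at 26 dpp (adjusted p = 0.0165), where it was not well above background. That makes 3 of 6 neighbours in WT testes, where 26.1% of all genes fell. In KO testes, with all arrays, Socs1 fell by 1.41 (limma, adjusted p = 0.0384) and Snn by 1.59 (adjusted p = 0.0431). The other neighbours did not pass there, and 8.13% of all genes fell. Dexi (−0.65), Clec16a (0.88) and Snn (−1.06) did not pass in WT testes with all arrays; without KO replicate 2 of 26 dpp Dexi (adjusted p = 0.0109) and Clec16a (adjusted p = 0.00412) did. For KO against WT, 0 of the 6 neighbours passed at either age, with or without that array.

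Histone genes outside the 9 were taken from 2 lists. Of 7 measured linker histones outside the 9 genes (8 listed), 0 rose and 4 fell with age in WT testes, with a median of −1.10, where 26.1% of all genes fell and the median of all genes was −0.45; without KO replicate 2 of 26 dpp 5 fell, where 43.7% of all genes did. Hist1h1a, a replication-dependent linker histone, fell by 2.77 (adjusted p = 0.0143), Hist1h1e by 2.13 (adjusted p = 0.0368) and Hist1h1b by 1.10 (adjusted p = 0.0319). In KO testes Hist1h1b alone fell with all arrays, by 1.61 (adjusted p = 0.0263), where 8.13% of all genes fell, and 4 of the 7 fell without replicate 2, where 38.1% did. Of 11 measured core histone variants (13 listed), 3 rose in WT testes and 0 fell, with a median of −0.18, where 19.1% of all genes rose and 26.1% fell; without KO replicate 2 of 26 dpp 3 rose and 2 fell. The 3 that rose are short H2A variants of the testis: H2al2a, at least 869-fold higher at 26 dpp (adjusted p = 0.0343), H2afb1, at least 29.2-fold higher (adjusted p = 0.0196), and H2al1m, higher by 9.23 (adjusted p = 0.0386). In KO testes none of the 11 passed with all arrays, and 3 rose and 2 fell without replicate 2, where 21.7% of all genes rose and 38.1% fell. H2al2a, known to open spermatid nucleosomes for the transition proteins, stood at 3.98 and −7.25 in KO and 3.09 and 5.03 in WT testes at 26 dpp, and was not well above background on KO replicate 2 or at 17 dpp.

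Lists of genes that act on the histone exchange or on spermatid messages were read the same way. Of 26 exchange factors, 6 rose in KO and 11 rose and 3 fell in WT testes, with median differences of 0.44 in KO and 0.99 in WT; without KO replicate 2 of 26 dpp 13 rose and 6 fell in KO (median 0.86) and 14 rose and 6 fell in WT testes. Of 10 spermatid transcription activators, 4 rose in KO and 7 rose and 2 fell in WT testes, with medians of 1.85 in KO and 2.98 in WT; without that array 8 rose and 1 fell in KO (median 2.90) and 8 rose and 2 fell in WT testes. Of 17 genes for storage and translation of spermatid messages, 8 rose in KO and 12 rose and 2 fell in WT testes, with medians of 1.48 in KO and 1.93 in WT; without that array 11 rose and 4 fell in KO (median 1.70) and 13 rose and 4 fell in WT testes. Over all genes 7.61% rose and 8.13% fell in KO and 19.1% rose and 26.1% fell in WT testes, and without that array 21.7% rose and 38.1% fell in KO and 25.6% rose and 43.7% fell in WT testes. Brdt, a bromodomain protein that drives histone removal, had levels of 4.10 and 4.80 in KO and 4.16 and 4.43 in WT testes at 26 dpp, against 0.71 and 1.93 in KO and 0.83 and 1.65 in WT testes at 17 dpp. It rose by 3.13 in KO (adjusted p = 0.0227) and by 3.06 in WT testes (adjusted p = 0.0115), and KO replicate 2 had its highest level. Crem, the CRE-binding activator of the spermatid, had 4.36 and 2.57 in KO and 4.34 and 4.63 in WT testes at 26 dpp, against −1.19 and 0.27 in KO and −0.37 and −0.04 in WT testes at 17 dpp. It rose by 3.92 in KO (adjusted p = 0.0256) and by 4.69 in WT testes (adjusted p = 0.00941), with KO replicate 2 above all 17 dpp arrays and below the other 3 of its age.

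Ybx3, a Y-box protein of stored messages, rose by 2.76 in KO (adjusted p = 0.0163) and by 3.29 in WT testes (adjusted p = 0.00581). Papolb, a testis poly(A) polymerase, rose by 4.94 in KO (adjusted p = 0.0228) and by 6.81 in WT testes (adjusted p = 0.00688). On the probes used in the fit, KO replicate 2 of 26 dpp was above the 17 dpp range for 14 of the 17 storage and translation genes. It was so for 14 of the 26 exchange factors, 6 of the 10 activators, 4 of the 9 protamine, transition protein and histone genes and 33.1% of all genes. Fhl5, the testis partner of CREM, was −0.39 from the 17 dpp mean in that array, against 8.40 in the other 3 arrays of 26 dpp, and Hmgb4 was well above background on those other 3 alone. For KO against WT, 0 genes of these 5 lists passed at either age, with or without that array.

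**Figure D5:**
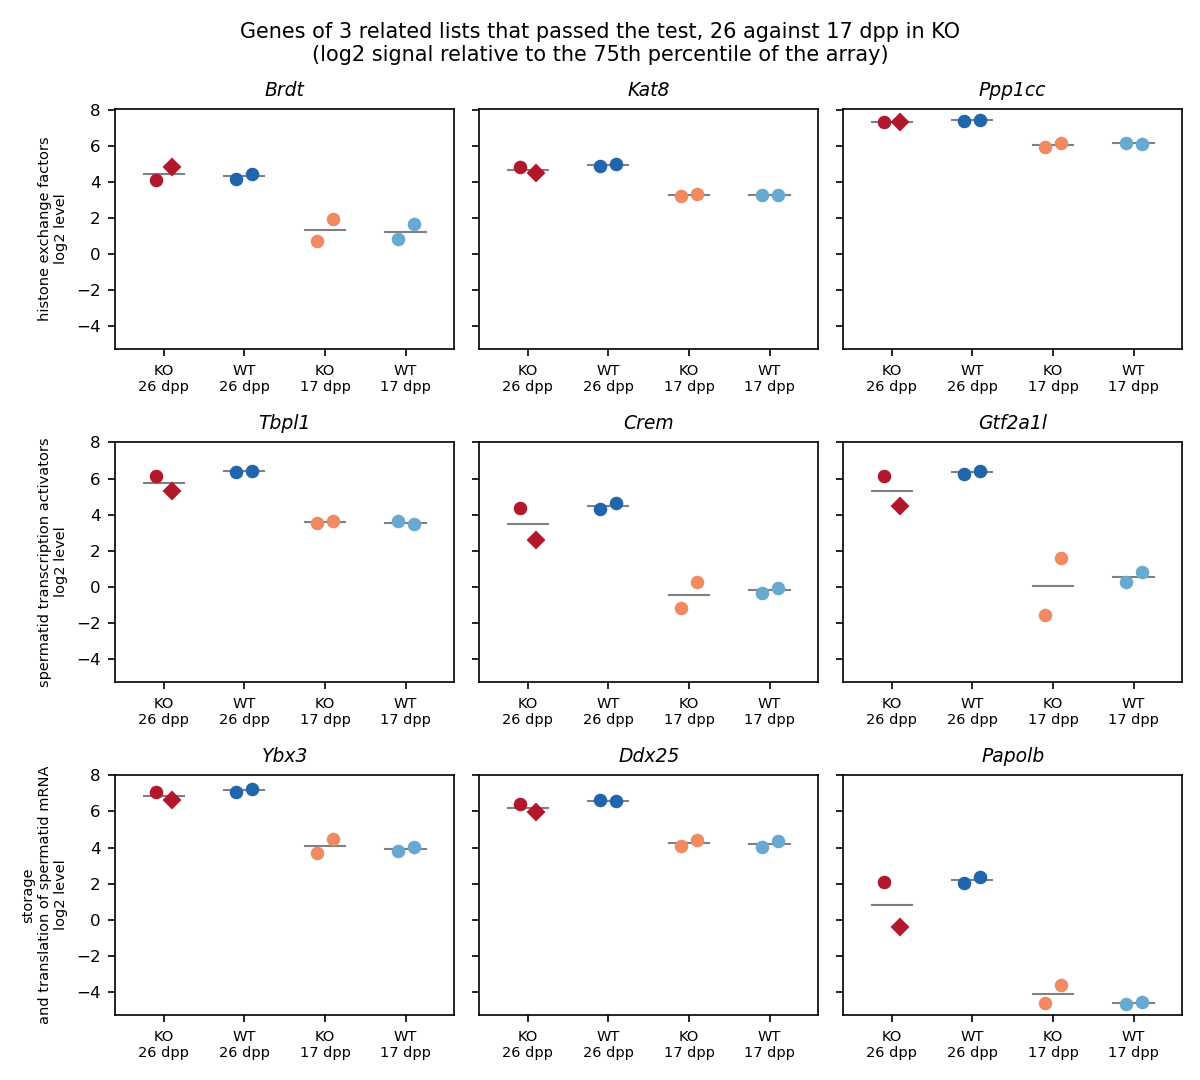
Levels (log2, vertical axis) of the 3 genes with the smallest adjusted p for 26 against 17 dpp in KO testes from each of 3 lists, histone exchange factors, spermatid transcription activators and storage and translation of spermatid mRNA; points are arrays, lines group means and the diamond KO replicate 2 of 26 dpp. The test that chose these genes includes the diamond's array, so its place above every 17 dpp array in all 9 panels is no result.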

How the data were processed

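RNA from whole testes was labelled with Cy3 and hybridised to 8 Agilent arrays, per the labels' protocols. The processed signal is an intensity on a linear scale, deposited by the authors per array and corrected for background, per the file headers, with Agilent Feature Extraction 11.5.1.1. The mean and background signals, also deposited intensities, served an alternative. The authors' deposited matrix holds log2 values; its scale is not stated, and each column correlated at 0.999906 to 0.999946 with log2 of the processed signal. Its columns had medians of −3.62 and −3.84 in KO and −3.59 and −3.65 in WT testes at 26 dpp, and of −3.67 and −3.63 in KO and −3.69 and −3.69 in WT testes at 17 dpp, so it is not centred per array, and how spots were combined stays unknown.

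The analysed level is the log2 ratio of a probe's processed signal to the 75th percentile of its array (470.2 to 691.8). Outlier spots (103 to 200 an array) were left out, 0 spots were saturated, and spots of a probe were averaged. A probe was kept where some group had both of its spots well above background, and a gene is its brightest kept probe: 26586 genes from 37810 probes. Accessions named 27509 probes, 3549 more had a current symbol and 24623 kept the file's name. One mean per group was fitted over all 8 arrays by limma (version 3.58.1, R 4.3.3, and data.table version 1.17.8 to read files), and 5 comparisons were tested, two-sided, with p-values adjusted by Benjamini-Hochberg over all genes and a threshold of 0.05. The labels do not say that replicates were bred or handled apart beyond being separate mice, and 2 arrays a group limit the precision. The genes, the lists and the rule for named genes (the 9 genes, Ip6k1, up to 3 genes a list, comparison and direction, and the 5 most similar to each of 2 profiles) were chosen with earlier results of these data known. Neighbours of the cluster were added to that rule. All arrays came from 1 slide and 1 scan. The fit was tested on simulated data.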

Additional observations from a re-analysis of the deposited data

How the results depend on the processing

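There were 2 arrays a group, and the lowest level well above background on an array was −5.77 to −5.42 (log2). The number of the 9 genes that passed was as given under both normexp backgrounds, median scaling, the authors' deposited values, the mean of a gene's probes and an eBayes trend. The sizes were not: under both normexp backgrounds the 7 spermatid genes rose less with age in WT testes. With 75th percentile scaling those rises (log2) ran from 8.74 (Prm3) to 10.4 (Prm1). For 26 against 17 dpp in KO testes, 0 of 9 passed, in place of 1, with no filter on dim probes, with array weights, with only the 4 arrays compared and with the replicate block. In WT testes 5 passed (5 of 5 measured) among probes well above background on all arrays, in place of 8, 7 with no filter on dim probes, where Prm1 was lost (adjusted p = 0.0533), and 6 with the replicate block, in which same-numbered samples are taken as paired. The numbers share no mouse, and deviations of same-numbered samples correlated at −0.405 to 0.114, so they were not treated as pairs. Leaving out 1 array at a time gave 0 to 9 genes in KO and 0 to 9 in WT testes for the ages, 0 to 8 for KO against WT at 26 dpp and for the interaction, and 0 at 17 dpp. Over all genes the count at 17 dpp, 27 as reported, ran from 0 to 42 when 1 choice was changed. The count over all genes ran from 0 to 15886 for the ages in KO testes (4183 as reported), from 0 to 19841 in WT testes (12031), from 0 to 12065 for KO against WT at 26 dpp (2) and from 0 to 8700 for the interaction (0), the last 2 highest without KO replicate 1 of 26 dpp. Further fits left out KO replicate 2 of 26 dpp and 1 further array, chosen after seeing the data and never KO replicate 1 of 26 dpp. In each the genes passed for the ages in KO and in WT testes and none did in the other comparisons. The share of all genes passing in those fits is not given. For KO against WT at 17 dpp, signs turned for Prm3 (−0.026) and H1fnt (−0.0027), both not well above background there, with normexp and quantile normalization and for Hist1h2ba (0.0087) in the deposited values. Leaving out 1 array at a time moved that difference between −0.0735 and 0.133 for Prm3, −0.39 and 0.78 for H1fnt, −0.29 and 0.28 for Hist1h2ba, −0.0070 and 0.75 for Prm2, and −0.13 and 0.61 for Hist1h1t. It moved 26 against 17 dpp in KO testes between −0.71 and 8.41 for Tnp1, −0.0423 and 11.51 for Tnp2, −1.66 and 11.46 for Prm1, and −0.35 and 1.91 for Hist1h2ba, each lowest without replicate 1 and highest without replicate 2. KO against WT at 26 dpp moved between −0.819 and 0.0277 for Hist1h1t. The cause was not tested. A fit with the slide as a block was not run, since all arrays share 1 slide.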
